A study of Mus musculus with 2 samples.

Results

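Fatty acid uptake and oxidation in skeletal muscle were followed through 10 genes, chosen by name from the steps of the pathway. They were found among 27356 named genes by matching the gene name printed for each array probe, and 15 of their probes were read. The tissue was tibialis anterior, a shin muscle made mainly of fast fibres, from adult male C57BL/6 mice, profiled on 1-colour expression arrays. The 2 arrays were 1 of control muscle and 1 of muscle transgenic for activated Notch2, the receptor's intracellular part (N2ICD, the group N2ICD-mTG in the labels). Both arrays lay on 1 slide. The labels do not say which promoter drives the transgene, what the control carries, or whether RNA of several animals was pooled. With 1 array per group no difference has a replicate check, no p-value is given, and genotype, animal and dissection cannot be told apart.

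Muscle takes fatty acids from circulating triglyceride that lipoprotein lipase splits at the capillary wall, carries them across the membrane and through the cytosol on dedicated proteins, and activates them to acyl-CoA. Acyl groups enter the mitochondrion on carnitine and are shortened there by the beta-oxidation enzymes. Pyruvate dehydrogenase kinases switch off glucose oxidation when fatty acids are burned, and slow and other oxidative fibres rely on this route more than fast glycolytic fibres do.

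Lpl, lipoprotein lipase, was the 1 gene of the 10 that differed by at least 2-fold, and it was higher in the N2ICD array. Fabp3, the muscle fatty acid-binding protein of the cytosol, was 1.59-fold lower and was the farthest in the other direction. The other 8 genes, Cpt1b, Cpt2, the beta-oxidation enzymes and Pdk4 among them, lay within 0.5 of 0 on the log2 scale. Scaling to the arrays' spike-in controls moved every gene up by 0.48, which put the median of all genes at 0.48. Cpt1b then stood at 0.73, Acadm at 0.77, Pdk4 at 0.80, Cd36 at 0.656 and Acadvl at 0.502. Acsl1, Hadha and Cpt2 stayed within 0.5 of 0. At the 2-fold threshold 1 of 10 members was higher, beside 1.42% of the 13634 genes well above background on both arrays, and 0 were lower, beside 0.895%. At 1.5-fold in either direction 2 of 10 passed, beside 9.88%. In muscle tissue, fewer cells of a type and less RNA per cell cannot be told apart.

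The probes that carry the Lpl and Acsl1 values are shown because their 2 readings per gene lie far apart on 1 transcript. Each probe is 60 bases long and reads in the sense of the transcript. The name gives the gene and the position on the transcript in bases. The probe nearer the 5′ end is printed whole and the other by its first 30 bases.
Lpl 1340: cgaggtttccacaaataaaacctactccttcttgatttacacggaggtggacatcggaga
Lpl 3484: gaacaccaacccacatgcaaaaccccacaa
Acsl1 2260: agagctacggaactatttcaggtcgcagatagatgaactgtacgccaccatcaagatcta
Acsl1 3718: gcctaacttcatactcgtattcttaattgc

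The 2 Fabp3 probes, in contrast, start 9 bases apart and share 51 of their bases, so they are close to 1 reading taken again. A stretch of 30 bases common to both is printed with the polyadenylation signal AATAAA in capitals.
Fabp3 575 and Fabp3 584: tgctccaaggtcAATAAAgcagaaccaagg
AATAAA was present on the printed strand in 5 of 15 member probes and in 10.1% of 55672 probes on the array. The 5 include both Fabp3 probes, which share 1 such stretch, and Lpl 1340, the Lpl probe nearer the 5′ end. Whether a match works as a polyadenylation signal was not tested. Exons and coding sequence were not assigned to the probes, since no annotation of their build, mm9, was used.

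Signals below are the processed spot intensities of each array. The N2ICD array was brighter by a factor of 1.13 at the 75th percentile of its spots. Each log2 difference is N2ICD minus control after each array was scaled to that percentile, which removes this factor. The typical gene had a log2 difference of 0.01. Each of the 15 member probes stood well above background on both arrays, with 0 saturated spots. Spots of 1 probe printed several times differed with an SD of 0.14 over 268 probes, falling to 0.05 in the brightest of 4 level groups. The scanner software's own error came to between 0.20 and 0.21 for each member probe's difference, and different probes of 1 gene had an SD of 0.25. None of these holds the spread between animals. Of the 15 member probes, 5 differed by more than 2 times the scanner's error: both of Lpl, both of Fabp3 and, narrowly, the Cpt2 probe nearer the 5′ end. The 2 Fabp3 probes share 51 bases and are close to 1 reading. The share of all probes past that bound is not given, so the count has no background to be read against.

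**Figure D1:**
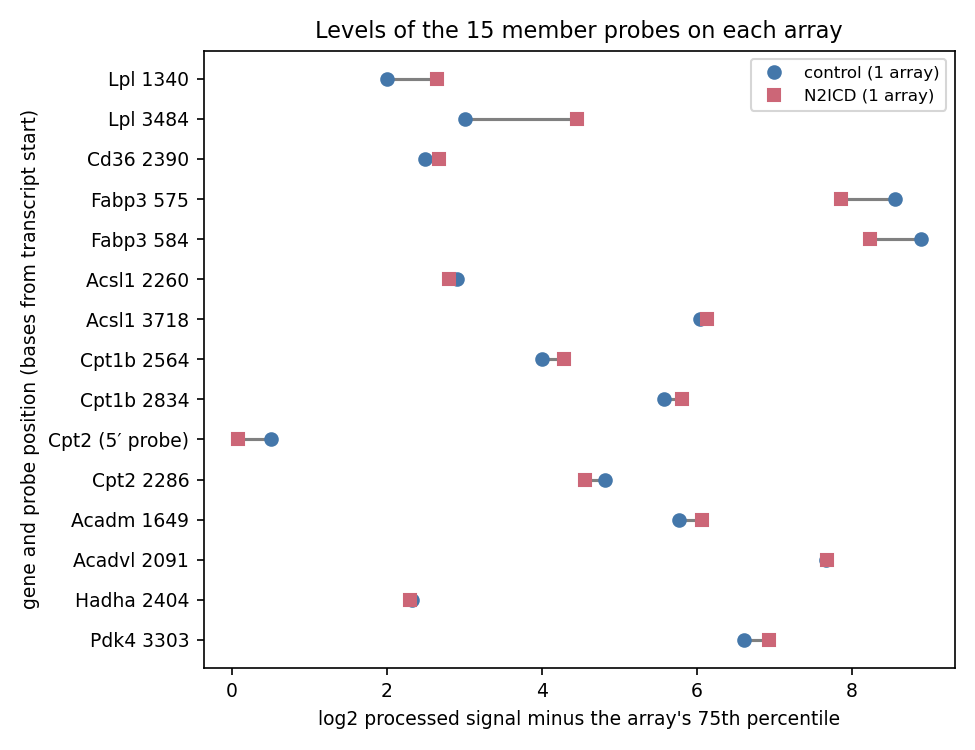
Scaled level (log2 processed signal minus the array's 75th percentile, horizontal axis) of the 15 member probes (rows, named by gene and position in bases) on the control array (circles) and the N2ICD array (squares), 1 array each. Both Lpl probes stand to the right on the N2ICD array and both Fabp3 probes to the left, from 8.55 to 7.86 for Fabp3 575. Levels of different probes are not comparable.

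In fatty acid uptake, Lpl frees fatty acids from lipoproteins outside the fibre. Its probe at position 3484 (mm9, chr8:71430267-71430326, plus strand) read 1361 on the control and 4161 on the N2ICD array, a log2 difference of 1.44, or 2.71-fold. Its probe at position 1340 (chr8:71425050-71425109) read 674 on the control and 1190 on the N2ICD array, a difference of 0.65, or 1.57-fold. Both probes were higher in N2ICD, and 1 of them passed 2-fold. The gene's value, the mean of both, was 1.04 or 2.06-fold, just inside the threshold, and 98.7% of the 13634 genes had a lower value. The authors' deposited table gave 2.742-fold and 1.584-fold, both up.

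The 2 Lpl readings differed by 0.79, with the probe nearer the 3′ end the higher one. Among 1028 pairs of probes at least 1000 bases apart on 1 transcript, 5.64% differed by as much in either direction. The probe nearer the 3′ end had the higher difference in 65.5% of these pairs, with a median of 0.11. Closer pairs that did not overlap had a median of 0.01. The Acsl1 probes, 1458 bases apart, went the same way by 0.20. The part of this in the Lpl value was not tested.

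Cd36, the membrane protein that takes up long-chain fatty acids, read 947 on the control and 1207 on the N2ICD array (chr5:17288600-17288659, minus strand). Its log2 difference of 0.18 was within the scanner's error. Fabp3, which carries fatty acids through the cytosol, was bright on both arrays. Fabp3 575 (chr4:129992643-129992702, plus strand) read 63413 on the control and 44078 on the N2ICD array, a difference of -0.70. Fabp3 584 read 80044 on the control and 57588 on the N2ICD array, a difference of -0.65. Both readings were lower in N2ICD, and 3.30% of all genes had a lower value than the Fabp3 mean of -0.67.

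Acsl1, the acyl-CoA synthetase that activates long-chain fatty acids in muscle, showed no common direction. Acsl1 2260 (chr8:47619774-47619833) read 1266 on the control and 1324 on the N2ICD array and a difference of -0.11. Acsl1 3718 (chr8:47621232-47621291) read 11146 on the control and 13386 on the N2ICD array and a difference of 0.09. Both lay within the scanner's error, and their mean was -0.01.

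**Figure D2:**
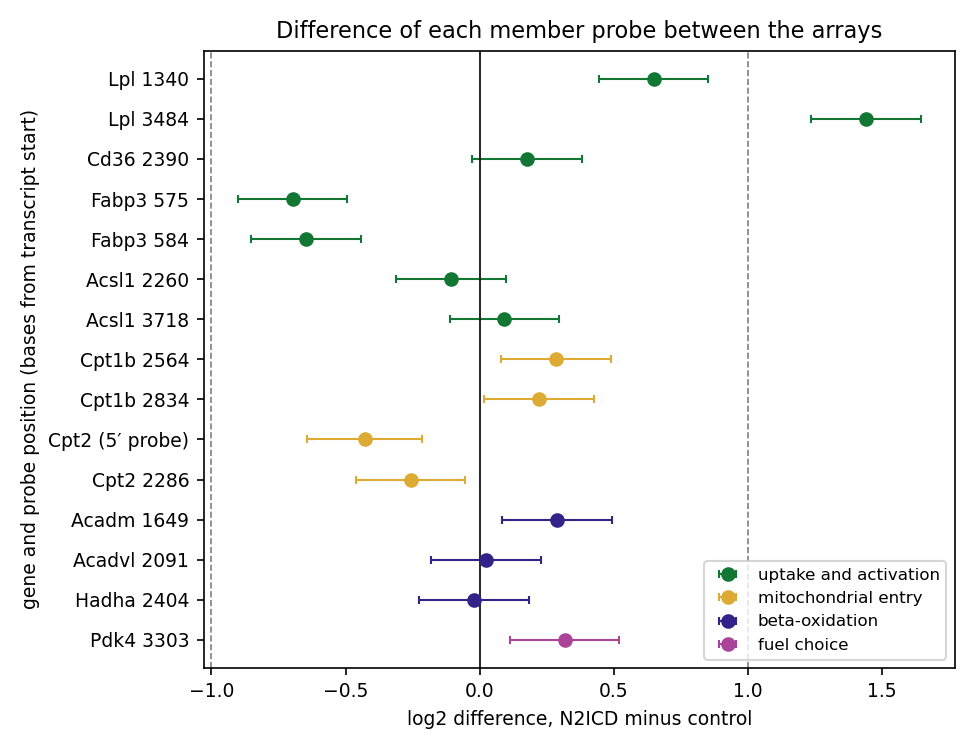
Log2 difference, N2ICD minus control (horizontal axis), of each member probe (rows), coloured by step of the pathway, with bars for 1 scanner error of the difference and dashed lines at 2-fold. The uptake and activation probes span from -0.70 to 1.44, while those of mitochondrial entry and beta-oxidation span from -0.43 to 0.29.

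For entry into the mitochondrion, Cpt1b is the muscle form of carnitine palmitoyltransferase 1, the controlled step of the pathway. Cpt1b 2564 (chr15:89247106-89247165, minus strand) read 2693 on the control and 3696 on the N2ICD array, a difference of 0.28. Cpt1b 2834 (chr15:89246836-89246895) read 8087 on the control and 10629 on the N2ICD array, a difference of 0.22. Both were higher in N2ICD by little more than 1 scanner error, and the gene was 1.19-fold higher.

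Cpt2, on the inner membrane, returns the acyl group to CoA. Its probe nearer the 5′ end read 240 on the control and 201 on the N2ICD array, a difference of -0.43. Cpt2 2286 (chr4:107576591-107576650, minus strand) read 4738 on the control and 4466 on the N2ICD array, a difference of -0.26. Both were lower in N2ICD, and the gene was 1.27-fold lower, opposite in direction to Cpt1b. When the arrays were scaled to their spike-in controls instead, Cpt2 turned to 0.14.

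Within beta-oxidation, Acadm, the medium-chain acyl-CoA dehydrogenase, was the farthest from 0. It read 9250 on the control and 12736 on the N2ICD array (chr3:153585670-153585729, minus strand), and it was 1.22-fold higher. Acadvl, which starts the cycle on very long chains, read 34224 on the control and 39181 on the N2ICD array (chr11:69823722-69823781, minus strand). Its difference was 0.02, and quantile normalization and loess brought it to or below 0. Hadha, a subunit of the trifunctional protein, read 844 on the control and 938 on the N2ICD array (chr5:30446215-30446274, minus strand). Its difference was -0.02, and median and spike-in scaling turned it above 0. Acadvl and Hadha lay within the spot noise of 0, and each gene of this step rests on 1 probe with 1 spot per array.

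Pdk4, the kinase that blocks pyruvate dehydrogenase and so favours fat over glucose, read 16535 on the control and 23204 on the N2ICD array (chr6:5433441-5433500, minus strand). It was 1.25-fold higher, at a log2 difference of 0.32, the second highest of the 10 genes. That value exceeds 1 scanner error and not 2 times that error, and 85.4% of all genes were lower.

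**Figure D3:**
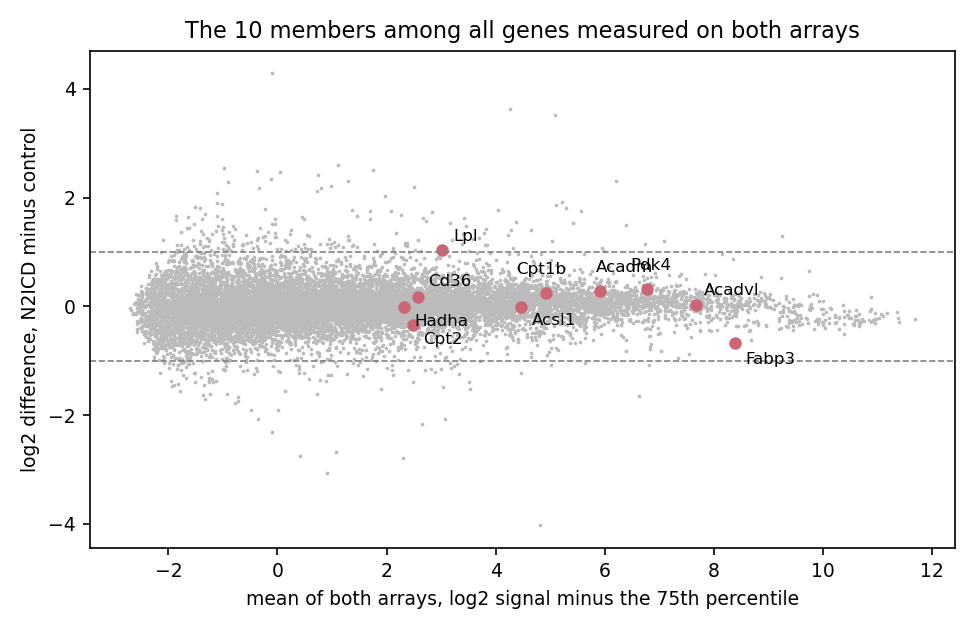
Log2 difference, N2ICD minus control (vertical axis), against mean scaled level (horizontal axis, log2) for the 13634 genes well above background on both arrays (grey), with the 10 members in red and dashed lines at 2-fold. Lpl sits at the upper 2-fold line, and Fabp3 lies at the lower edge of the genes of its level.

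In order of their differences the genes were Lpl, Pdk4, Acadm, Cpt1b, Cd36, Acadvl, Acsl1, Hadha, Cpt2 and Fabp3. Of the 9 gaps between neighbours, 3 exceeded the SD between probes of 1 gene. These were the gaps from Lpl to Pdk4 (0.73), from Hadha to Cpt2 (0.32) and from Cpt2 to Fabp3 (0.33). The genes from Pdk4 to Cd36, and those from Cd36 to Hadha, have no order beyond that spread. Of the 10 genes 6 lay above 0 and 4 below, beside 50.7% of all genes above 0. Their median was 0.10.

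Set against each other, uptake and activation (Lpl, Cd36, Fabp3, Acsl1) had a median log2 difference of 0.08. Mitochondrial entry and beta-oxidation (Cpt1b, Cpt2, Acadm, Acadvl, Hadha) had 0.02. The medians differed by 0.06. The 4 uptake genes ran from -0.67 to 1.04 and the 5 others from -0.34 to 0.29. Lpl and Fabp3 set the first range, and the uptake median was -0.01 without Lpl and 0.18 without Fabp3. Without Lpl the difference between the medians turned to -0.03, and without Fabp3 it was 0.15. Leaving out Lpl and leaving out Fabp3 were both chosen after seeing the data.

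Around the members, the pathway was followed through 106 further genes, of which 99 were measured on both arrays. None of these was at least 2-fold higher, beside 1.42% of all genes, and 1 was at least 2-fold lower, beside 0.895%. Of the 99 genes 53 lay above 0 and 46 below, beside 50.7% of all genes above 0, and their median was 0.02. The 2-fold gene was Prkag3, a regulatory subunit of AMP-activated kinase found mainly in fast glycolytic muscle, which was 2.39-fold lower from 1126 on the control to 532 on the N2ICD array. On the spike-in scale it stood at -0.78, inside 2-fold. There 4 of the 99 genes were at least 2-fold higher (Acsl3, Dld, Pdha1 and Ppargc1a) and 0 were lower, with 92 above 0 and 7 below. On that scale 893 of all 13634 genes were at least 2-fold higher and 25 lower, and their median was 0.48.

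Among 14 uptake and transport genes, the 3 members included, 8 lay above 0, 6 below, and the median was 0.02. Gpihbp1, the endothelial protein that holds lipoprotein lipase at the capillary wall, had 0.02. Lmf1, which matures the lipase, had -0.12, and its secreted inhibitor Angptl4 had 0.02. The lipoprotein receptor Vldlr had 0.39. Gpihbp1, Lmf1 and Angptl4 lay close to 0 while Lpl itself was at 1.04. They are named here for their role and not for their distance from 0, so no conclusion is drawn from them. The farthest after Lpl and Fabp3 were Angptl2 at -0.56 and the caveolar protein Cav1 at -0.54.

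Acyl-CoA synthesis and hydrolysis genes had a median of -0.01 over 11 genes, 5 above 0 and 6 below. The largest value was that of Acsl3, another long-chain acyl-CoA synthetase, which was 1.89-fold higher from 133 on the control to 284 on the N2ICD array. Acsl5 lay at -0.42 and the thioesterase Acot9 at 0.40. In the carnitine shuttle 10 of 11 genes were measured, 7 above 0 and 3 below, with a median of 0.10. The carrier Slc25a20, which exchanges acylcarnitine for carnitine and works between Cpt1b and Cpt2, read 1084 on the control and 745 on the N2ICD array and was 1.64-fold lower, at -0.71, and at -0.23 on the spike-in scale. It was farther from 0 than either Cpt1b or Cpt2. The carnitine importer Slc22a5 was at 0.41. Cpt1a, the liver form, was at -0.26, and Cpt1c was not well above background.

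The mitochondrial beta-oxidation list extends Acadm, Acadvl and Hadha to the other enzymes of the cycle and the flavoproteins that take its electrons. Its 17 genes ran from -0.34 to 0.29 with a median of -0.01, 7 above 0 and 10 below. Hadhb, the partner subunit of Hadha, had 0.10, and the long-chain dehydrogenase Acadl had 0.04. The ends of the range were Acad11 at -0.34 and Acadm. Peroxisomal beta-oxidation genes had a median of -0.03 over 10 genes, with Pex11a at -0.40 the farthest.

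Pdk4 belongs to the list with the highest median, that of pyruvate dehydrogenase, its kinases and the pyruvate carrier. Of 14 genes, 11 lay above 0 and 3 below, with a median of 0.20 and none past 2-fold. The E3 subunit Dld was 1.61-fold higher in 2 probes that gave 0.67 and 0.70, and the E1 alpha subunit Pdha1 was 1.53-fold higher. On the spike-in scale these 2 genes passed 2-fold, Dld at 1.16 and Pdha1 at 1.09, as did 893 of all 13634 genes in that direction. The E1 beta subunit Pdhb had 0.05, with 3 probes from -0.28 to 0.25. The E2 subunit Dlat had 0.01 and the further subunit Pdhx 0.24. Pdk3 had 0.36, Pdk1 0.22 and Pdk2, the other main muscle kinase, -0.09. Pdp2, a phosphatase that reactivates the complex, had -0.71.

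The 15 measured genes of lipid droplets and lipolysis had a median of -0.01, with 6 above 0 and 9 below. Pnpla2, the main triglyceride lipase, had 0.06, while Cidea had -0.62 and the monoglyceride lipase Mgll -0.46. Pnpla3 read 117 in N2ICD muscle and 29.0 in control, where it did not clear background. After scaling, the N2ICD reading was 3.59-fold higher than the control's own dim reading. That ratio is not a lower bound, since the control reading did not clear background. The share of all genes read on 1 array alone is not given beside it. Regulators of the pathway had a median of 0.12 over 15 genes, 9 above 0 and 6 below. The lipid-sensing receptors Ppara and Ppard had 0.12 and 0.17, and the third of that family, Pparg, had -0.28. The coactivator Ppargc1a had 0.62 and its relative Ppargc1b -0.13. The partner receptor Rxrg had -0.77. Of 9 further target genes of these receptors 4 were measured, with Ucp3 at -0.04 and Slc25a34 at 0.38.

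**Figure D4:**
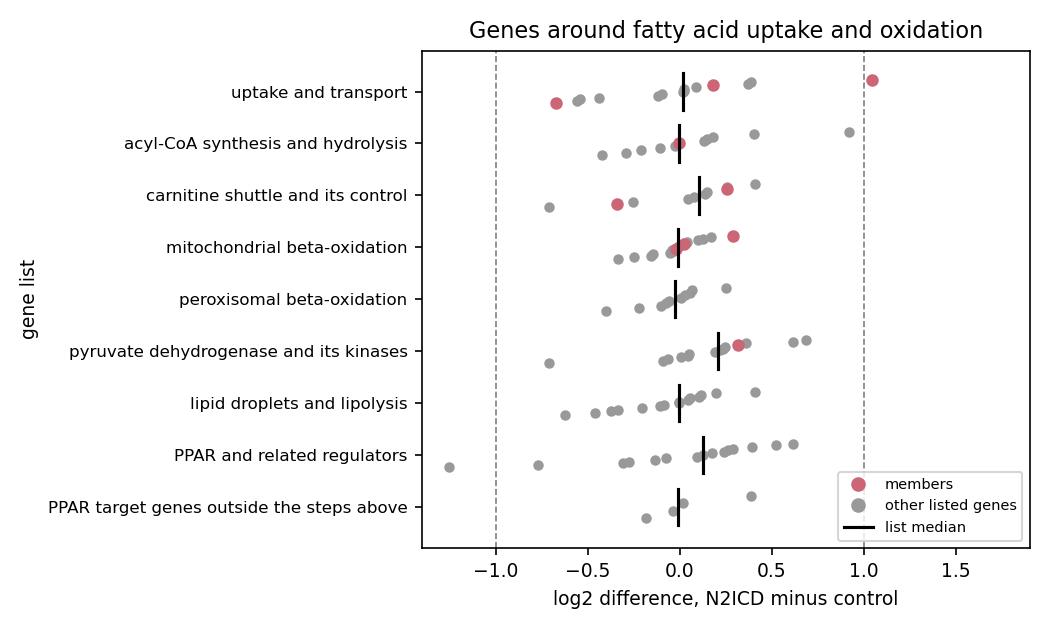
Log2 difference, N2ICD minus control (horizontal axis), of every measured gene in 9 lists around fatty acid use (rows), with the 10 members in red, list medians as black bars and dashed lines at 2-fold. The list medians lie between -0.03 and 0.20, with Lpl past the upper line and Prkag3 past the lower one.

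Markers of the tissue were checked beside these values. All 9 muscle fibre markers were measured, 5 above 0 and 4 below. Among them the oxidative and slow fibre genes Myh7 (4.64-fold), Myh2 (2.46-fold) and myoglobin, Mb (1.56-fold), were higher in N2ICD, the direction of Lpl and not that of Fabp3. The intermediate filament gene Des had 0.28. The fast fibre genes Myh4, Tnnt3 and Myh1 had -0.26, -0.18 and 0.03, the muscle creatine kinase Ckm -0.52 and skeletal actin, Acta1, -0.11. Lpl is also made by adipocytes. Of 7 adipocyte markers 6 were measured, 3 above 0 and 3 below. Their summed signal, in units of each array's 75th percentile, was 46.6 in control and 54.4 in N2ICD, and Lep was not well above background. Fabp4, the brightest of the list, weighs most in that sum, with 4246 on the control and 6173 on the N2ICD array. The median of the measured adipocyte markers was -0.01. Cidec and Fabp4 each had 0.37 and Cfd 0.05, while Adipoq had -0.08, Retn -0.09 and Plin1 -0.30. Cd36 and Gpihbp1 are made by endothelium. All 8 endothelial markers were measured, 3 above 0 and 5 below, and their summed level was 79.1 in control and 68.3 in N2ICD. The median of these markers was -0.22. The farthest from 0 were Emcn at -0.59, Kdr at -0.52, and Tek and Esam at -0.34 each, while the highest was Pecam1 at 0.12. The 6 macrophage markers had summed levels of 29.5 and 27.9 and the 6 fibroblast markers 594 and 482. In each of these 2 lists 2 genes lay above 0 and 4 below, with medians of -0.33 and -0.27. Of 4 heart muscle markers Myh6 was measured, and 0 of 4 liver markers were. Fabp4 and Gpihbp1 stand in an uptake list and in a marker list. The part of fibre type or of other cells in the Lpl and Fabp3 values was not tested.

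**Figure D5:**
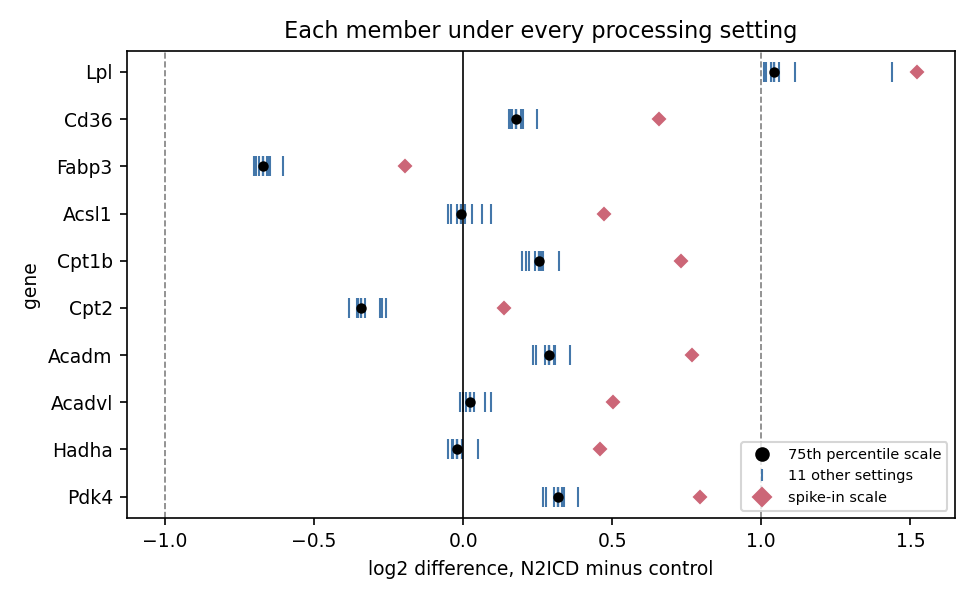
Log2 difference, N2ICD minus control (horizontal axis), of each member (rows) at the 75th percentile scale (black), in 11 other settings (blue ticks) and on the spike-in scale (red). The spike-in scale moved every gene up by 0.48, Lpl to 1.52 and Fabp3 to -0.19.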

How the data were processed

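Cy3-labelled total RNA of 1 control and 1 N2ICD muscle sample was read on 1 Agilent array each, per the labels' protocols. The scanner files hold spot intensity values that the authors' scanner software (Agilent Feature Extraction, version 10.10.1.1) wrote, per the file headers, background-subtracted and detrended within each array. The authors' deposited table gives an unsigned fold (ratio) per probe, intensity values and normalized log2 values. Its making is not given in the sources here.

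From each log2 processed signal the 75th percentile of the array's 59305 non-control spots was subtracted (signals of 169 on the control array, 190 on the other). After 215 flagged spots were left out, spots of 1 probe were averaged. A gene is the mean of those of its probes that both arrays read well above background. Genes were named by the files, and listed genes absent under their name by accession. The members, the gene lists and the rule for named genes (all members, and the list genes farthest from 0) were chosen with earlier results of these data known. Some genes the text describes for their role were added after their values were seen. No test was possible with 1 array per group, and array number limits the precision. Alternatives were another background correction, scaling, filter, probe rule, naming or source. The steps were tested on simulated data with planted differences larger than any member's at the 75th percentile scale. The simulated noise was the same at every signal level, so recovery of smaller differences was not tested. The tools were limma 3.58.1 in R 4.3.3, and pandas 2.3.3 with numpy 2.4.6 in Python 3.11.15. A Cpt2 probe sequence is not reported here.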

Additional observations from a re-analysis of the deposited data

How the results depend on the processing

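Lpl was the 1 member past 2-fold in each of 12 other settings, between 1.01 and 1.52, but its probe at position 1340 alone did not pass. At a threshold of 1.5-fold 2 members passed, Lpl and Fabp3. Cd36, Cpt1b, Acadm, Pdk4, Lpl and Fabp3 kept their sign in all 12 settings. Cpt2 changed sign on the spike-in scale, which rests on 7 control probes and moved all genes by 0.48. Acsl1, Acadvl and Hadha, all close to 0, changed sign or reached 0 in 5, 2 and 2 settings. On the spike-in scale the medians of the 9 pathway lists ran from 0.45 to 0.68, all above 0, beside 0.48 for all genes. The uptake minus beta-oxidation difference ran from 0.04 after normexp to 0.15 without Acsl1, and it turned to -0.03 without Lpl, a setting chosen after seeing the data. On the spike-in scale Acsl3, Dld, Pdha1 and Ppargc1a passed 2-fold and Prkag3 did not. Over all genes, normexp gave 81 at least 2-fold higher and 43 lower in place of 194 and 122. The spike-in scale gave 893 and 25. Without a filter on dim probes the counts were 829 and 965, and with a filter met by 1 array they were 364 and 328. The cause was not tested. A 75th percentile over spots above background, chosen after seeing the data, changed no member's call. No paired analysis was possible because each group has 1 array.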

Other observations

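Promoter sequences (RefSeq, GRCm38.p6, from 250 bases before the start to 50 after it) were found for 8 of the 10 members, all but Lpl and Cpt1b. The letters AGGTCA, a core site of many nuclear receptors, were found on either strand for 3 of these 8 (Cd36, Acadm and Acadvl), beside 18.1% of 27025 genes. The letters TGGGAA, the core of the motif of the Notch partner RBPJ, were found for 4 of 8 (Cd36, Acsl1, Acadvl and Pdk4), beside 28.3% of genes. TCAAGGTCA (which contains AGGTCA) and CACGTG were found in 0 of the 8 windows, beside 0.47% and 8.09% of genes. A match is a description of the letters alone.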
